A study of Homo sapiens with 12 samples.

Results

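Hyaluronan is a long sugar polymer of the extracellular matrix, and 9 genes that make it, break it down or bind it were followed here through all 4 groups of an RNA sequencing experiment. The genes were taken by symbol from a table of 58721 genes: the synthases HAS1, HAS2 and HAS3, the hyaluronidases HYAL1, HYAL2 and HYAL3, the hyaluronan-degrading protein CEMIP, and the hyaluronan-binding proteins CD44 and HMMR. Each symbol matched 1 row. The samples came from EW8 and TC71, established human lines of Ewing sarcoma, a bone and soft tissue cancer, in the derived forms named TO-EW8-Fos/Jun (from EW8) and TO-TC71-Fos/Jun (from TC71). All cells carried 2 lentiviral constructs, a Tet-On 3G transactivator driven by the human EF1 alpha promoter and a TRE3G promoter that drives c-Jun and c-Fos, joined by a self-cleaving peptide sequence, when doxycycline is present. Cells of each line received vehicle (DMSO) or doxycycline at 2000 ng/ml for 72 h, which gave 4 groups (EW8 vehicle, EW8 doxycycline, TC71 vehicle, TC71 doxycycline) of 3 libraries. c-Jun and c-Fos form the transcription factor AP-1, and the comparison asked how gene expression changed when both were made. Infected cells were selected with antibiotics, clones are not described, and doxycycline without the transgenes was not analysed here, so its own effect and that of c-Jun and c-Fos cannot be told apart.

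The 12 libraries held 42860665 to 60853649 counts. JUN rose from a mean of 21.59 to 473.7 CPM (counts relative to library size, after TMM scaling) in EW8 and from 20.74 to 755.5 CPM in TC71. FOS, whose product is c-Fos, rose from 36.76 to 1078 CPM and from 11.67 to 1580 CPM. All 9 Ewing sarcoma markers examined were above the floor of 6 counts, or 3 read pairs, per library in every group. The T and B lymphocyte markers CD3E and MS4A1 were at the floor in every group, while the leukocyte gene PTPRC stood at 59.6 to 77.44 CPM in the 6 EW8 libraries and at the floor in TC71. TC71 vehicle replicate 1 stood apart from its group: the chi-square per gene against the other two TC71 vehicle libraries was 65.5 and 63.1, against 5.39 to 11.2 for every other pair of replicates. Test outcomes and gene counts of the members and lists that changed without that library are given both ways.

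Hyaluronan is built at the plasma membrane by the synthases, which join 2 sugars supplied as UDP-glucuronic acid and UDP-N-acetylglucosamine. The hyaluronidases and CEMIP cut the chain into fragments, which cells take up and degrade further in lysosomes. CD44 is the main cell-surface receptor for hyaluronan and a known marker of mesenchymal and migrating cells, and HMMR, also called RHAMM, binds hyaluronan outside the cell and microtubules of the mitotic spindle inside it. Ewing sarcoma cells carry an EWS fusion oncoprotein, usually EWS-FLI1, and are small round cells.

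The sequences around the start sites of CD44 and HMMR are shown, since CD44 had the largest change of the 9 genes in both lines and the HMMR window held the most motif matches. Windows from 250 bases before to 50 bases after the start, from RefSeq (GRCh38.p14), were searched for 8 of the 9 genes. HAS2 was left out of the search. Capitals mark matches on either strand to any of 4 motifs: TGANTCA, the AP-1 site, TGACGTCA, the cAMP response element that some AP-1 dimers also bind, TTTGAA, the cell cycle genes homology region found before many mitotic genes, and CCAAT, the site of NF-Y. The CD44 window is chr11:35138921-35139220 and the HMMR window is chr5:163460382-163460681, both on the plus strand.
CD44: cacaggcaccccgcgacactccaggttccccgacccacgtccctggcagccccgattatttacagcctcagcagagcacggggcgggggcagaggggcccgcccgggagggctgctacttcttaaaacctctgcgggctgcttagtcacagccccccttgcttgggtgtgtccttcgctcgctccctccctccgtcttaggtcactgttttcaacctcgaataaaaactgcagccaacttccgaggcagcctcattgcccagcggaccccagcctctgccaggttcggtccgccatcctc
HMMR: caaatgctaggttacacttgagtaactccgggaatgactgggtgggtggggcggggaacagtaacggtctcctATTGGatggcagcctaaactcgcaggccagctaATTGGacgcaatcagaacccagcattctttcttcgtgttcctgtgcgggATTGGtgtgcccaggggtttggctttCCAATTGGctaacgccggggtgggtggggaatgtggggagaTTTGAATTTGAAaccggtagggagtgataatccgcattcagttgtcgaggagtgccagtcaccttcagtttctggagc
The CD44 window held none of the 4 motifs. The HMMR window held TTTGAA 2 times, 28 and 22 bases before the start, and CCAAT 5 times, 1 as written and 4 as the reverse complement, with 1 match of each orientation overlapping in the run CCAATTGG. TGANTCA was in 7.71% of all 35116 windows of this kind, TGACGTCA in 1.85%, TTTGAA in 15.2% and CCAAT in 34.6%. TGANTCA was in no window of the 8 genes. Of the other 6 genes, only HAS1 held any of the motifs, with 1 TTTGAA and 1 TGACGTCA, a sequence that reads the same on both strands. Sites farther from the start were not searched, and a match or its absence is a statement about these letters alone.

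The 3 synthase genes were low or at the floor in both lines. HAS1 had 0 to 2 counts in each of the 12 libraries and HAS2 had 1 count in a single EW8 vehicle library and 0 in the rest, which for both is under the floor of 0.0966 to 0.145 CPM that 6 counts make. HAS1 and HAS2 were therefore not detectable at this depth with or without doxycycline, and were not among the 21013 genes tested. HAS2 shares 4.8% of its exon length with its antisense gene HAS2-AS1, and reads that fell on both genes were not counted.

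HAS3 (chr16:69105564-69118719, plus strand) was the one synthase above the floor, at 14 to 44 counts per library. The EW8 vehicle libraries had 0.7217, 0.8717 and 0.7185 CPM and the EW8 doxycycline libraries 0.537, 0.4348 and 0.6851 CPM. The TC71 vehicle libraries had 0.2673, 0.6925 and 0.8539 CPM and the TC71 doxycycline libraries 0.7757, 0.8603 and 0.91 CPM. The EW8 groups did not overlap, the TC71 groups did, and the low value in TC71 vehicle belonged to the library that stood apart. The log2 fold change with doxycycline was −0.48 (95% interval −1.40 to 0.44, edgeR adjusted p = 0.414) in EW8 and 0.49 (−0.43 to 1.40, adjusted p = 0.396) in TC71, and 0.07 in TC71 without that library. At this depth neither line showed a change in HAS3, and changes of 2-fold lay within both intervals.

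**Figure D1:**
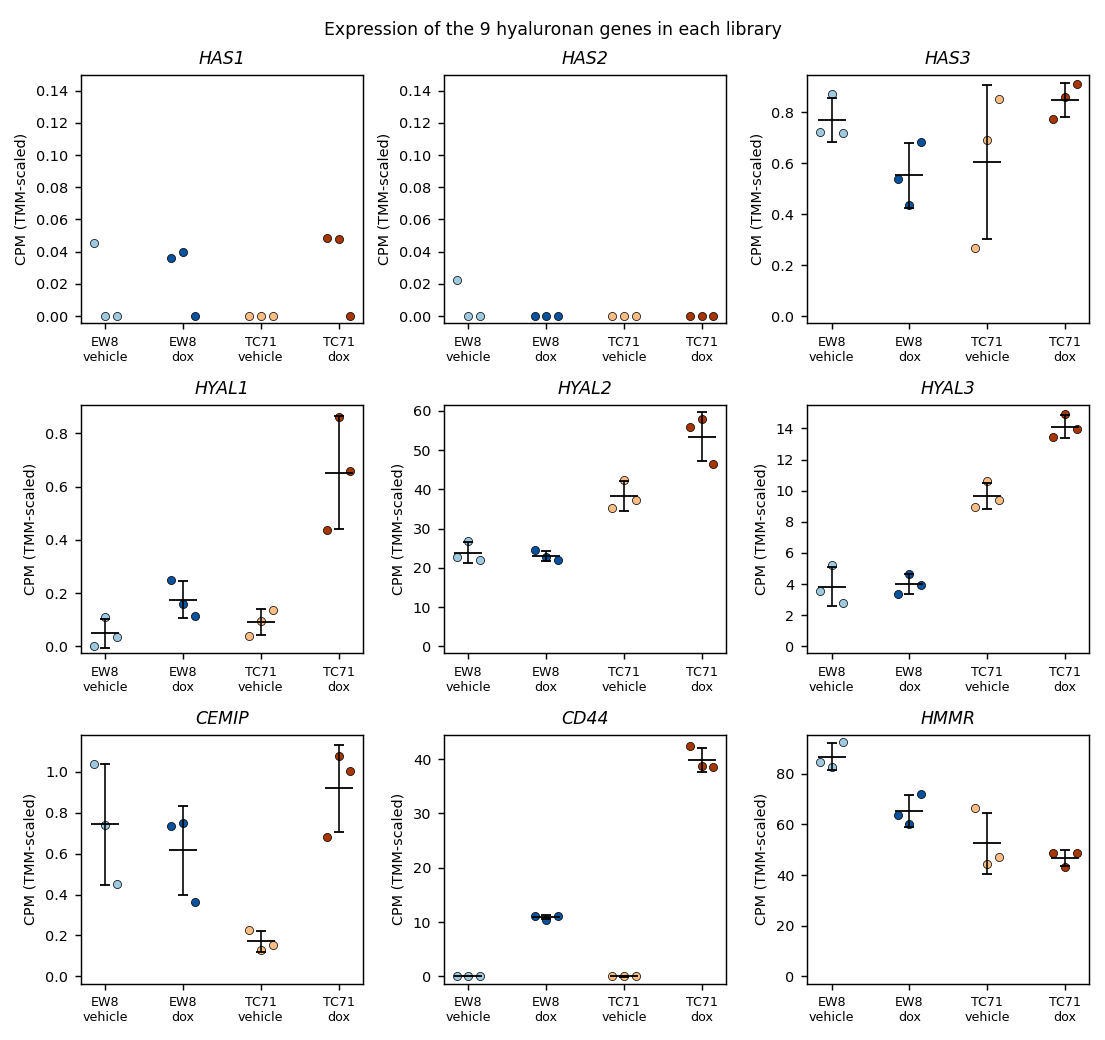
Expression of each of the 9 genes in each library, in CPM scaled by TMM on the vertical axis, for the 4 groups on the horizontal axis. Each point is 1 library and the bars give the mean and SD of 3 libraries, left out for HAS1 and HAS2. CD44 was at or near 0 in all 6 vehicle libraries and between 10.43 and 42.32 CPM in all 6 doxycycline libraries.

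HYAL1, HYAL2 and HYAL3 lie side by side on chromosome 3, on the minus strand, between bases 50292831 and 50322906. In EW8 none of the hyaluronidase genes passed the test with doxycycline, and in TC71 all 3 rose, HYAL1 by more than 2-fold and HYAL2 and HYAL3 by less. HYAL1 and HYAL2 together are known as the main hyaluronidases of somatic tissues, HYAL2 at the cell surface and HYAL1 in lysosomes, whereas the role of HYAL3 is less clear.

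HYAL1 was near the floor in 3 of the 4 groups. Its counts were 0, 5 and 2 in EW8 vehicle, 14, 8 and 5 in EW8 doxycycline, 2, 6 and 7 in TC71 vehicle, and 18, 36 and 29 in TC71 doxycycline. Per library size, the doxycycline libraries were above the vehicle libraries in both lines, by a narrow margin in EW8. In TC71 the mean went from 0.09022 ± 0.0491 to 0.6521 ± 0.212 CPM (SD, n = 3), a log2 fold change of 2.82 (SE 0.79, edgeR adjusted p = 0.00658). In EW8, where every vehicle library was at the floor, the doxycycline mean of 0.1743 ± 0.0696 CPM was 1.29-fold the highest vehicle floor. The EW8 change did not pass the test (log2 95% interval −0.04 to 3.67, edgeR adjusted p = 0.108). HYAL1 entered the test through the TC71 doxycycline libraries, and the difference between the lines' responses was 1.00 on the log2 scale (95% interval −1.61 to 3.62, adjusted p = 0.662).

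HYAL2 was the most abundant of the 3, with 959 to 2639 counts per library. In EW8 the vehicle libraries had 22.64, 26.87 and 21.93 CPM and the doxycycline libraries 24.45, 22.84 and 21.9 CPM. In TC71 the vehicle libraries had 35.13, 42.5 and 37.26 CPM and the doxycycline libraries 55.92, 58.02 and 46.41 CPM. The EW8 groups overlapped and the TC71 groups did not. In EW8 the log2 fold change was −0.04 (95% interval −0.26 to 0.17, adjusted p = 0.773). The TC71 value was 0.48 (SE 0.10, adjusted p = 0.000723), and the responses differed by 0.52 (SE 0.15, adjusted p = 0.0158). Without TC71 vehicle replicate 1 the difference was 0.36 with adjusted p = 0.0605, and without TC71 doxycycline replicate 1 or 2 it was 0.40 and 0.37 with adjusted p = 0.121 and 0.133. HYAL2 shares 11.2% of its exon length with TUSC2 on the same strand, and reads in the shared part were not counted.

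HYAL3 had 154 to 658 counts per library and a like order of groups. Its mean was 3.839 ± 1.25 CPM in EW8 vehicle, 3.992 ± 0.643 CPM in EW8 doxycycline, 9.648 ± 0.845 CPM in TC71 vehicle and 14.12 ± 0.729 CPM in TC71 doxycycline (SD, n = 3). In EW8 the log2 fold change was 0.06 (95% interval −0.35 to 0.47). In TC71 it was 0.55 (SE 0.18, adjusted p = 0.0181), and adjusted p lay between 0.0529 and 0.0955 when TC71 vehicle replicate 1 or any TC71 doxycycline library was left out. The difference between the responses, 0.49, did not pass the test (adjusted p = 0.232). Of its exon length, 12.22% is shared with NAA80 and 2.12% with IFRD2.

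CEMIP (chr15:80779343-80951776, plus strand), which binds hyaluronan and is needed for its breakdown in skin fibroblasts, rose in TC71 and showed no change in EW8 past the test. In TC71 the vehicle libraries had 12, 8 and 8 counts and the doxycycline libraries 28, 45 and 44, so that the groups did not overlap. In EW8 the vehicle libraries had 46, 34 and 25 counts and the doxycycline libraries 41, 38 and 16, and these groups overlapped. In CPM the TC71 mean went from 0.1711 ± 0.052 to 0.9184 ± 0.211, and the EW8 means were 0.7425 ± 0.294 and 0.6167 ± 0.218 (SD, n = 3). The log2 fold change was 2.42 (SE 0.51, adjusted p = 0.000716) in TC71 and −0.25 (95% interval −1.23 to 0.72, adjusted p = 0.708) in EW8. The responses differed by 2.67 (SE 0.69, adjusted p = 0.00992), and by 2.82 without TC71 vehicle replicate 1. With doxycycline the TC71 level was near that of EW8, at a log2 difference of 0.57 (95% interval −0.41 to 1.54), whereas with vehicle TC71 was lower by −2.10 (SE 0.51, adjusted p = 0.00152).

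**Figure D2:**
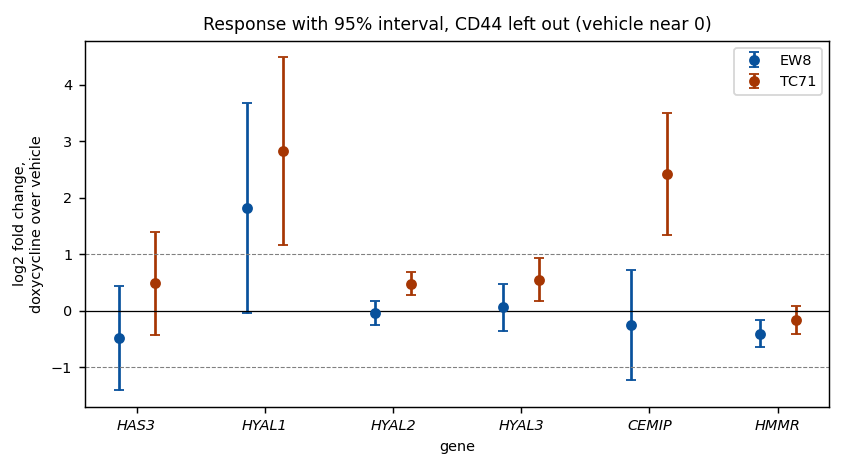
Log2 fold change of doxycycline over vehicle on the vertical axis for the 6 tested genes other than CD44, in EW8 and TC71. Points are edgeR estimates from 3 libraries per group, bars are 95% intervals and dashed lines mark a 2-fold change. The EW8 and TC71 intervals lie apart for HYAL2 and CEMIP, and the EW8 interval of HMMR lies below 0.

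CD44 (chr11:35138870-35232402, plus strand) went from absent or nearly so to clearly expressed in both lines. In EW8 the 3 vehicle libraries had 0 counts each, and the doxycycline libraries had 624, 528 and 491. In TC71 the vehicle libraries had 0, 8 and 0 counts, and the doxycycline libraries 1746, 1620 and 1691. No vehicle library came near a doxycycline library. The doxycycline means were 10.94 ± 0.437 CPM in EW8 and 39.84 ± 2.16 CPM in TC71 (SD, n = 3). Against the floor in EW8 vehicle, CD44 was at least 80.8-fold higher (edgeR adjusted p = 1.43e-11). In TC71 the 4 read pairs with vehicle and 2528 with doxycycline gave a ratio of 826, with an exact 95% interval of 322 to 3030 that covers counting error only (edgeR adjusted p = 4.79e-13). The 8 counts of TC71 vehicle replicate 2 set the size of that ratio, and the other two TC71 vehicle libraries held none.

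With doxycycline CD44 was 3.64-fold higher in TC71 than in EW8 (exact 95% counting interval 3.36 to 3.94). The corresponding log2 difference was 1.86 (SE 0.18, adjusted p = 1.35e-07). Since EW8 vehicle held no count, the fold changes of the lines could not be set against each other, and the test of the difference in response did not pass (adjusted p = 0.359). CD44 entered the test through the doxycycline libraries. The counts are per gene, so standard CD44 and the variants made by alternative splicing were not told apart. In bulk libraries, more cells that express a gene and more RNA per cell cannot be told apart either. The summed levels of markers of other cell types also differed with doxycycline, and their members did not all go one way. The summed level of 6 epithelial markers went from 9.72 to 10.5 CPM with vehicle to 50.8 to 54.9 CPM with doxycycline in EW8 and from 176.0 to 215.0 CPM to 227.0 to 241.0 CPM in TC71, with KRT5 at the floor in all groups. By adjusted p alone KRT8 and KRT18 rose in EW8 and EPCAM in TC71. That of 4 endothelial markers went from 7.54 to 8.72 CPM to 37.4 to 44.3 CPM in EW8 and from 0.0644 to 0.382 CPM to 3.85 to 5.14 CPM in TC71, where PECAM1 and VWF rose in both lines and CDH5 in TC71. That of 6 fibroblast markers went from 78.2 to 86.4 CPM to 59.6 to 60.0 CPM in EW8 and from 75.4 to 116.0 CPM to 119.0 to 128.0 CPM in TC71. PDGFRB, DCN and LUM fell in both lines, while PDGFRA rose in EW8 and COL1A1, from 26.07 to 92.77 CPM, and COL1A2 rose in TC71. Their part in the CD44 result was not tested.

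HMMR (chr5:163460203-163491945, plus strand) was the most abundant of the 9 genes per kilobase of exon and fell with doxycycline in EW8. The EW8 vehicle libraries had 84.76, 82.58 and 92.69 CPM and the EW8 doxycycline libraries 63.62, 60.12 and 72.12 CPM. The TC71 vehicle libraries had 66.28, 44.17 and 47.2 CPM and the TC71 doxycycline libraries 48.8, 43.18 and 48.62 CPM. The EW8 groups did not overlap, whereas in TC71 the groups overlapped and the high vehicle value was that of the library that stood apart. The log2 fold change was −0.41 (SE 0.12, adjusted p = 0.00743) in EW8, and −0.32 with adjusted p = 0.0597 without EW8 vehicle replicate 3. In TC71 it was −0.16 (95% interval −0.41 to 0.08, adjusted p = 0.28), and −0.03 (adjusted p = 0.825) without TC71 vehicle replicate 1. The responses of the lines differed by 0.25 (SE 0.16, adjusted p = 0.352) with all libraries and by 0.34 (adjusted p = 0.0224) without that one.

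HMMR acts with spindle and mitosis proteins, and 22 genes of that kind were listed. All 22 were lower with doxycycline in EW8, with a median log2 fold change of −0.41, and 20 were lower in TC71, with a median of −0.37, by adjusted p alone. None was lower by more than 2-fold. By the same rule 22% of all tested genes were lower in EW8 and 20.4% in TC71, and the medians of all tested genes were −0.03 and 0.00. Without TC71 vehicle replicate 1 the counts were again 22 and 20. The largest change in EW8 was in KIF15, a spindle motor, at −0.86 in EW8 and −0.87 in TC71. The largest in TC71 was in NUSAP1, which bundles spindle microtubules, at −0.91, against −0.40 in EW8. The summed level of the 22 genes was 6421 to 6743 CPM in EW8 vehicle, 4959 to 5071 CPM in EW8 doxycycline, 3664 to 4178 CPM in TC71 vehicle and 3046 to 3127 CPM in TC71 doxycycline. TC71 vehicle replicate 1 was the highest of its group in this sum, as it was in HMMR.

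**Figure D3:**
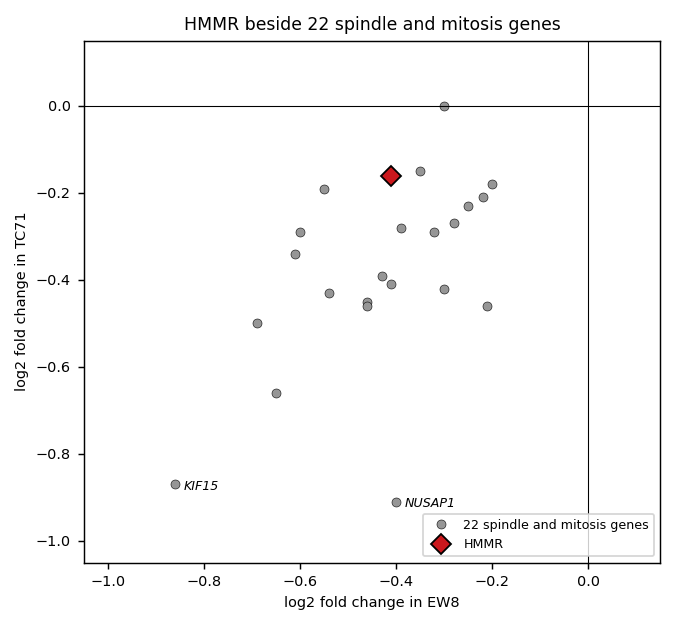
Log2 fold change with doxycycline in EW8 (horizontal axis) and TC71 (vertical axis) of HMMR (diamond) and 22 spindle and mitosis genes (circles), from edgeR with 3 libraries per group. HMMR lies at −0.41 and −0.16, inside the spread of the other genes in both lines, and KIF15 and NUSAP1 have the largest falls.

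Over the 7 tested genes, 1 (CD44) rose by more than 2-fold at adjusted p under 0.05 in EW8, a rule that 11.4% of all tested genes met. In TC71 3 genes (CD44, HYAL1, CEMIP) did so, against 12.3% of all tested genes. None of the 7 fell by that rule in either line, against 3.38% and 3.67%. One gene, CEMIP, was called in the difference between the responses, where 4.18% of tested genes were called higher and 2.87% lower in TC71. By adjusted p alone HYAL2 joined CEMIP with a larger value in TC71, where 12.2% of all tested genes had a larger and 7.07% a smaller value. With 7 genes these counts describe the members and are no result about them as a group.

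The lines also differed in these genes before induction. With vehicle, HYAL3 was higher in TC71 by 1.34 on the log2 scale (SE 0.19, adjusted p = 6.28e-06) and HYAL2 by 0.69 (SE 0.10, adjusted p = 1.26e-05), while HMMR was lower by −0.72 (SE 0.12, adjusted p = 2.67e-05) and −0.87 without TC71 vehicle replicate 1. By the 2-fold rule CD44 and HYAL3 were called higher and CEMIP lower, where 11.6% and 18.9% of all tested genes were. The CD44 call (adjusted p = 0.0378) rested on the 8 counts of TC71 vehicle replicate 2, and adjusted p was 1 without that library. With doxycycline, CD44, HYAL1, HYAL2 and HYAL3 were called higher in TC71 and none lower, against 12.6% and 18.4% of all tested genes. HYAL3 differed by 1.82 (SE 0.19), HYAL2 by 1.21 (SE 0.10) and HYAL1 by 1.88 (SE 0.74, adjusted p = 0.0361). HMMR was lower by −0.48 (SE 0.12, adjusted p = 0.00165). By adjusted p alone 4 members were higher and 1 lower, where 30.2% and 32.3% of all tested genes were; with vehicle 3 were higher and 2 lower, against 28.2% and 33.5%.

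Per kilobase of exon, HMMR, HYAL2 and HYAL3 were the 3 most abundant genes in that order in every group. With vehicle HMMR stood at 22.02 CPM per kb in EW8 and 13.35 in TC71, HYAL2 at 5.24 and 8.426, and HYAL3 at 1.891 and 4.753. CD44 was the fourth with doxycycline, at 1.093 CPM per kb in EW8 and 3.982 in TC71, below HYAL3 in each doxycycline library. HAS3, CEMIP and HYAL1 stayed between 0.01542 and 0.2082 CPM per kb in the group means. In TC71 with doxycycline HMMR (11.91) and HYAL2 (11.76) overlapped between libraries. HAS3 overlapped with CEMIP in both EW8 groups. HYAL1 overlapped with CEMIP in EW8 doxycycline, TC71 vehicle and TC71 doxycycline, and with HAS3 in TC71 doxycycline.

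**Figure D4:**
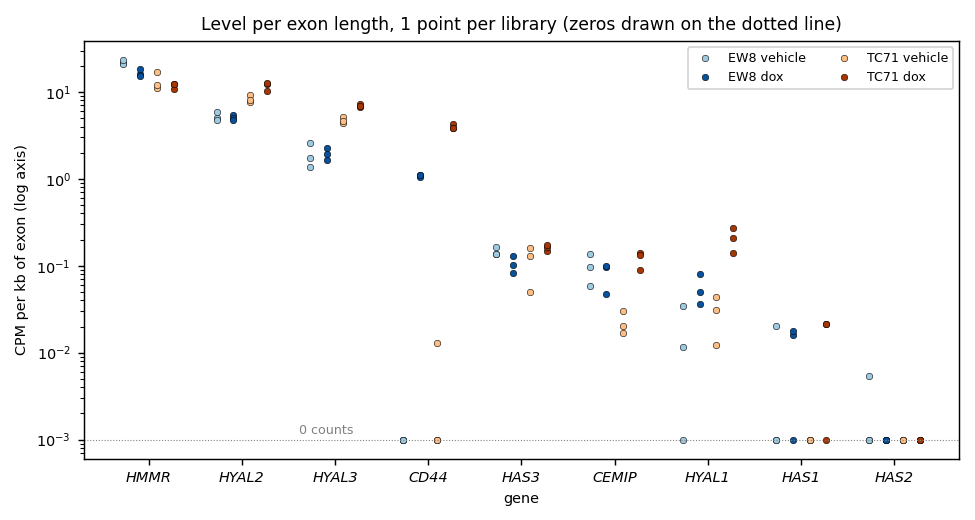
Level of each of the 9 genes per kilobase of exon, in TMM-scaled CPM per kb on a log axis, with 1 point for each of the 12 libraries coloured by group. HMMR, HYAL2 and HYAL3 lie above the rest. With vehicle, CD44 lies on the line of 0 counts except in TC71 replicate 2, at 0.01288 CPM per kb. With doxycycline CD44 lies at 1.093 (EW8) and 3.982 (TC71) CPM per kb on average.

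The other genes of hyaluronan metabolism were counted from lists, which were drawn up with earlier results known. By adjusted p alone, 5 of 12 enzymes that make the sugar precursors were higher and 4 lower in EW8. In TC71 9 were higher and 1 lower. Of all tested genes, 21.9% were higher and 22% lower in EW8, and 25.1% and 20.4% in TC71. The medians of the list were 0.07 and 0.32. Without TC71 vehicle replicate 1 the counts were 6 and 4 in EW8 and 9 and 2 in TC71. GFPT2, one of the enzymes for the first step of the hexosamine pathway, rose from 7.482 ± 0.679 to 33.28 ± 1.44 CPM in EW8 and from 0.2023 ± 0.181 to 16.62 ± 1.39 CPM in TC71 (SD, n = 3). Its log2 fold changes were 2.15 and 6.33, and the responses differed by 4.17 (SE 0.38, adjusted p = 3.38e-07) and by 3.52 without TC71 vehicle replicate 1. HK1, a hexokinase, rose by 0.81 in EW8 and 1.98 in TC71, a difference of 1.17 (SE 0.09, adjusted p = 4.73e-08).

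Of 8 further genes for breakdown of hyaluronan and related sugar chains, 7 were tested. By adjusted p alone 3 rose in EW8 and 5 in TC71, with none lower. Of all tested genes, 21.9% rose and 22% fell in EW8, and 25.1% and 20.4% in TC71. Without TC71 vehicle replicate 1 the TC71 count was 4. CEMIP2, the cell-surface relative of CEMIP also called TMEM2, rose in both lines and more so in EW8. It went from 12.78 ± 0.902 to 70.02 ± 2.61 CPM in EW8 and from 18.74 ± 0.789 to 45.46 ± 2.92 CPM in TC71. The log2 fold changes were 2.45 and 1.28, and the difference of −1.18 (SE 0.11, adjusted p = 4.97e-07) was opposite in sign to that of CEMIP. HPSE, heparanase, which cuts heparan sulfate, rose by 0.84 and 1.32.

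Of 18 genes for proteins that bind or link hyaluronan in the matrix, 9 were tested, and by adjusted p alone 2 rose and 2 fell in EW8 and 4 rose and 1 fell in TC71. Of all tested genes, 21.9% rose and 22% fell in EW8 and 25.1% rose and 20.4% fell in TC71, so the EW8 counts are near the background. Without TC71 vehicle replicate 1, 3 rose and 1 fell in TC71. PTX3, a pentraxin that helps to stabilise hyaluronan-rich matrix, rose from 0.02906 to 26.42 ± 4.25 CPM in EW8, at least 195-fold. In TC71 the ratio of read pairs, 5 with vehicle and 808 with doxycycline, was 211 (exact 95% counting interval 90.1 to 652). PTX3 entered the test through the doxycycline libraries, as did any list gene at the floor with vehicle in both lines. VCAN, the proteoglycan versican, was near the floor throughout: its log2 fold change was −1.18 (adjusted p = 0.258) in EW8 and it was at least 3.14-fold higher with doxycycline in TC71 (adjusted p = 0.0115, and 0.0772 without TC71 doxycycline replicate 3). The test of the difference between the VCAN responses gave adjusted p = 0.0214, and up to 0.0814 over the alternatives. No size is given for it, as TC71 vehicle was at the floor.

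Of 6 other hyaluronan receptor genes, 2 could be tested, and by adjusted p alone these 2 rose in both lines. Of all tested genes 21.9% rose in EW8 and 25.1% in TC71. With 2 genes the count is no result about the list. LAYN, layilin, rose from 3.356 ± 0.704 to 10.1 ± 0.637 CPM in EW8 and from 11.07 ± 0.508 to 54.65 ± 1.95 CPM in TC71, at log2 fold changes of 1.60 and 2.30. TLR2, a pattern receptor that hyaluronan fragments can trigger, rose by 1.17 in EW8 (adjusted p = 0.0164) and by 4.39 in TC71, a difference of 3.22 (SE 0.57, adjusted p = 0.000508). The EW8 call on TLR2 was lost without EW8 vehicle replicate 2 or 3, with adjusted p up to 0.0645. With 2 to 22 counts in the TC71 vehicle libraries, the TC71 value ranged from 3.94 without replicate 3 to 5.34 without replicate 2 of that group, and the difference from 2.77 to 4.17.

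A list of 16 genes held ligands, proteases, membrane partners and splicing regulators of CD44. By adjusted p alone 14 were higher and 1 lower in EW8, and 12 higher and none lower in TC71. Of all tested genes 21.9% were higher in EW8 and 25.1% in TC71. The medians of the list were 0.69 and 1.01, against −0.03 and 0.00 for all tested genes. By the 2-fold rule 6 and 7 were higher, where 11.4% and 12.3% of all tested genes were. Without TC71 vehicle replicate 1 the TC71 counts were 12 higher and 1 lower. MMP9, a protease that docks on CD44, rose from 1.598 ± 0.262 to 36.25 ± 1.15 CPM in EW8 and from 0.2613 ± 0.215 to 7.895 ± 0.326 CPM in TC71. The TC71 log2 fold change of MMP9 was 4.91, and 5.63 without TC71 vehicle replicate 3. SPP1, the CD44 ligand osteopontin, was at least 18-fold higher with doxycycline in EW8 and at least 1.89-fold higher in TC71, where its mean reached 0.2204 CPM. With 0 to 4 counts in each vehicle library, SPP1 entered the test through doxycycline libraries. LRP1, an endocytic receptor for matrix proteins and proteases, rose by 1.08 and 1.78. MMP14, a membrane protease that sheds CD44, rose by 0.65 and 1.83, a difference of 1.19 (SE 0.19, adjusted p = 0.000217). ANK3, an ankyrin that ties membrane proteins to the spectrin skeleton, fell by 0.65 in EW8 and rose by 1.03 in TC71, a difference of 1.69 (SE 0.20, adjusted p = 7.39e-06).

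**Figure D5:**
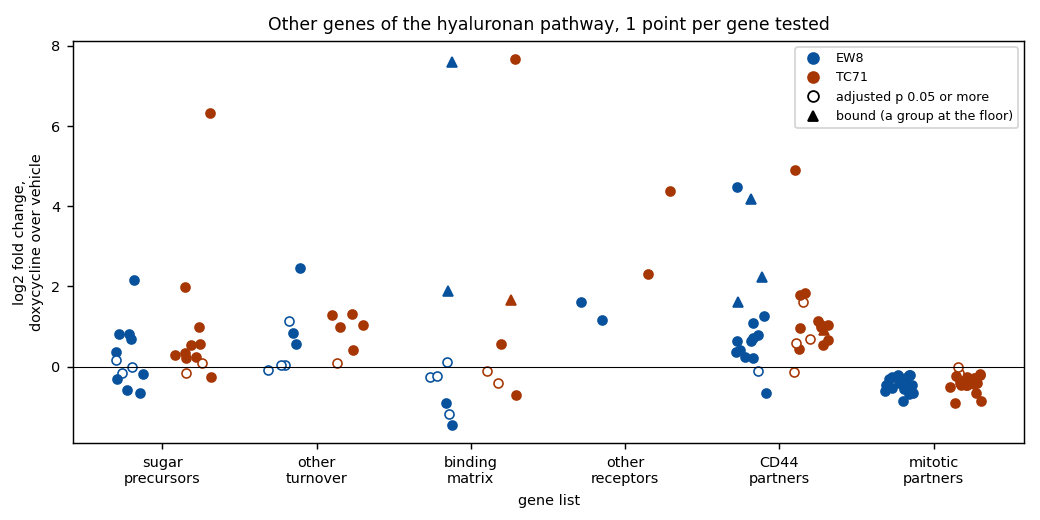
Log2 fold change with doxycycline for tested genes of the 6 lists, in EW8 and TC71, from edgeR with 3 libraries per group. A gene with neither a ratio nor a bound in a line, as with both groups at the floor, has no point there. Filled points passed adjusted p under 0.05, open points did not, and triangles are lower bounds on the size of a change where a group was at the floor. The 22 mitotic genes sit at or below 0, and in the list of CD44 partners 14 (EW8) and 12 (TC71) filled points lie above 0.

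Across the 12 libraries, the genes whose log2 CPM followed each member most closely were named by Pearson's r, as a description over libraries that fall into 4 groups. For CD44 these were CSRNP1 (0.996), ANTXR2 (0.995) and CAVIN1 (0.994). For HMMR they were HSPA4 (0.994), SKA1 (0.982), which encodes a spindle and kinetochore protein, and SLC12A2 (0.981). HYAL2 was followed by MARCHF8 (0.988), GNAI2 (0.985) and NOSIP (0.984), and HYAL3 by THNSL2 (0.989), TTC8 (0.987) and ESS2 (0.987). The low genes had looser companions: YIPF3 (0.967), PFKP (0.965) and SHKBP1 (0.963) for HYAL1, ACTG2 (0.935), ZSCAN30 (0.913) and CRACDL (0.911) for CEMIP, and MTX2 (0.909), SUMF2 (0.895) and TXNDC12 (0.862) for HAS3. Among the members the highest r was 0.965, between HYAL2 and HYAL3, and CD44 and HYAL1 had 0.827.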

How the data were processed

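Polyadenylated RNA of 12 libraries (3 in each of 4 groups) was sequenced as read pairs. The authors aligned the reads with STAR to GRCh38 and counted them per gene with featureCounts 2.0.1 on GENCODE release 29. The deposited values were whole-number counts, not normalized, and a gene length column. Per the file headers, no option for read pairs, strand, multiple mapping or overlapping genes was set, so each mate counted once and reads on 2 genes were dropped. Symbols were found for 58207 of 58721 gene identifiers (99.1%).

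Counts were fitted here with edgeR 4.0.16 (quasi-likelihood, TMM, R 4.3.3), 1 mean per group over all 12 libraries, after filterByExpr left 21013 genes holding 99.95% of counts. P-values were Benjamini-Hochberg adjusted over all of these. A call needed adjusted p under 0.05 and a log2 fold change beyond 1. SE is the fold change over the root of F, and 95% intervals use the residual and prior degrees of freedom (9.37 prior). Fold bounds set a group at the floor to 6 counts (3 read pairs) per library. Library totals of 42860665 to 60853649 set the precision, and the floors and the exact intervals of read-pair ratios cover counting error only, while the edgeR intervals include the spread between libraries. DESeq2 1.42.0, other scalings, filters, a replicate block and each library left out were tried. Scripts were tested on simulated data.

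The labels give replicate numbers but no separate cultures, so p-values may measure technical spread. Deviations of same-numbered libraries of a line correlated at −0.074 to 0.062, so numbers were not taken as pairs. The members and gene lists were chosen with earlier results of these data known. List genes were named if called in both lines in 1 direction, called in the difference, or the largest change of a list in a line. The 3 tested genes most alike each member were named by Pearson's r of log2 CPM (prior count 2), without overlapping genes. JUN and FOS were named as the check of induction.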

Additional observations from a re-analysis of the deposited data

Results flagged for a closer look

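Among the 7 tested genes, 2 had doxycycline responses that differed between the lines by the edgeR interaction test, as TC71 minus EW8 on the log2 scale. CEMIP differed by 2.67 (SE 0.69, adjusted p = 0.00992), on counts of 8 to 46 per library. HYAL2 differed by 0.52 (SE 0.15, adjusted p = 0.0158), which is under the 2-fold limit, and adjusted p was 0.0605 to 0.133 when any of 3 TC71 libraries was left out.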

How the results depend on the processing

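The 35 results of the 7 tested genes were each recomputed under 17 to 19 alternative settings, which gave 640 recomputed results. Of these, 610 kept direction and side of adjusted p 0.05, 19 no longer passed it, 2 newly passed it and 9 changed sign. Most of these genes are low, so depth limits HAS3, HYAL1 and CEMIP, and HAS1 and HAS2 could not be assessed. Asking for at least 10 counts in every library removed CD44, HYAL1 and CEMIP from the test. The called counts were then 0 of 1 higher in EW8, 0 of 3 in TC71, 0 of 1 in the difference, 1 of 2 higher and 0 of 1 lower between lines with vehicle, and 2 of 4 with doxycycline. With no fold limit, the counts were 1 lower in EW8 (HMMR), 5 higher in TC71, 2 higher in the difference, 2 lower between lines with vehicle and 1 lower with doxycycline. With vehicle, the count of 2 higher became 1 with the 6 libraries compared alone. With the replicate number as a block, which the check of deviations did not show to be a pairing, the same count became 1, since CD44 had adjusted p = 0.0572, and HYAL1 between lines with doxycycline had 0.076; the block moved no other member across adjusted p 0.05. With each library left out in turn, the called counts ranged from 1 to 2 higher in EW8 (2 without EW8 vehicle replicate 2, HYAL1 then at adjusted p = 0.035), 1 to 2 higher between lines with vehicle, and 3 to 4 with doxycycline. HYAL1 between lines with doxycycline was lost without EW8 doxycycline replicate 2 or 3 or TC71 doxycycline replicate 2 or 3 (adjusted p 0.0759 to 0.124), and with no filter on low counts (0.0684). CD44 between lines with vehicle was lost without any 1 EW8 vehicle library (adjusted p 0.0727 to 0.0842).

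The changes of sign were all in results that did not pass the test. HYAL2 in EW8 was 0.02 under the filter of 10 counts. With a library left out, the log2 values ranged from −0.09 to 0.05 for HYAL2 in EW8, −0.09 to 0.34 for HYAL3 in EW8, −0.48 to 0.06 for CEMIP in EW8, −0.67 to 0.05 for HAS3 between lines with vehicle, −0.20 to 1.53 for HYAL1 in the difference, and −3.05 to 1.86 for CD44 in the difference. The single values were 0.05 for HYAL2 without EW8 vehicle replicate 2, −0.09 and −0.07 for HYAL3 without EW8 vehicle replicate 3 and EW8 doxycycline replicate 2, 0.06 and 0.01 for CEMIP without EW8 vehicle replicate 1 and EW8 doxycycline replicate 3, 0.05 for HAS3 without TC71 vehicle replicate 1, −0.20 for HYAL1 without EW8 vehicle replicate 2, and 1.86 for CD44 without TC71 vehicle replicate 2. The causes were not tested. Other scalings moved the median of all genes by less than 0.1. The list counts without TC71 vehicle replicate 1 were added after the data were seen.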

Other observations

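The genes next to the HYAL cluster on chromosome 3 were looked at after GNAI2, which lies in the same stretch, appeared among the genes most like HYAL2. There were 13 other tested genes within 100 kb of the cluster. By adjusted p alone 9 were higher in TC71 than in EW8 with vehicle, 1 was lower and 3 did not pass. Of all tested genes 28.2% were higher and 33.5% lower. The median log2 difference of the 13 genes was 0.66. GNAI2 differed by 1.01, IFRD2 by 1.24, RASSF1 by 1.01 and NPRL2 by 0.71, beside 0.69 for HYAL2 and 1.34 for HYAL3, while CACNA2D2 was lower by −2.05. With doxycycline 9 of the 13 were higher, 2 were lower and 2 did not pass, where 30.2% of all tested genes were higher and 32.3% lower. In the response to doxycycline, 4 of the same 13 genes were higher and 2 lower in EW8. In TC71 5 were higher and 3 lower. Of all tested genes 21.9% were higher and 22% lower in EW8, and 25.1% and 20.4% in TC71. These genes were chosen after their values were seen and overlap in part, and the values carry no test of the stretch as a whole.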
